A study of Rattus norvegicus with 20 samples.

Results

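The genes described are 10 members of the NRF2 antioxidant response, measured in blood cells of LEW and WKY rats. They were Nfe2l2, Keap1, Nqo1, Hmox1, Gclm, Gclc, Txnrd1, Srxn1, Slc7a11 and Prdx1. Members were taken by name: every probe set whose only annotated gene symbol equals one of these names was used, which gave 10 of the 14497 genes with a single annotated symbol and 11 of the 28826 probe sets of the array. Prdx1 had 2 probe sets, named here set 1 (probe set 10818184) and set 2 (probe set 10871286), and each of the other 9 genes had 1.

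The study asked how inbred rats of different strains respond to an energy-dense diet. Male rats of the inbred strains LEW/Crl and WKY/NCrl, aged 15 weeks, ate standard chow (STD) or a cafeteria diet of palatable human foods (CAF) for 7 weeks and were fasted for 9 h before blood was drawn. RNA from the blood cells of each rat went to 1 Rat Gene 1.0 ST array, with 5 rats in each of the LEW STD, LEW CAF, WKY STD and WKY CAF groups. No rat carried a transgene or an induced mutation, and because each strain is a single inbred line, strain and any other difference between the colonies cannot be told apart. The labels call the cells PBMC, whereas the study's methods describe monocytes that had adhered to plastic.

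NRF2, the protein made from Nfe2l2, is a transcription factor that switches on genes of oxidant defence by binding the antioxidant response element together with a small MAF protein. In resting cells KEAP1 captures it and hands it to the proteasome, and oxidants or electrophiles that modify KEAP1 release it, so the pathway is controlled largely at the level of the protein and not of the Nfe2l2 transcript. In myeloid cells the response is known for supplying glutathione and thioredoxin during inflammation. BACH1 competes with NRF2 for the same element until heme removes it.

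The antioxidant response element has the core letters TGACNNNGC. RefSeq promoter windows of the rat build GRCr8, each from 250 bases before to 50 bases after a start site, were held for 9 of the 10 genes, in 10 windows. The core was present, on either strand, in windows of 4 genes (Gclm, Nfe2l2, Prdx1 and Txnrd1), and in 12.1% of all 33469 windows. Those 4 sites are shown so that the element can be seen in place, 5′ to 3′ on the strand of the gene, with the core in capitals. Where the core lies on the opposite strand, the capitals read as its reverse complement.
Gclm, chr2:213031943-213031991, plus strand, core beginning 172 bases before the start site: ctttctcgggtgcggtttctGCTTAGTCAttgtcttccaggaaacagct
Prdx1, chr5:135383751-135383799, plus strand, core beginning 135 bases before the start site: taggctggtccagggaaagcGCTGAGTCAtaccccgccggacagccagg
Txnrd1, chr7:22755954-22756002, minus strand, core beginning 78 bases before the start site: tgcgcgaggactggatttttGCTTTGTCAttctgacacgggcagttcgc
Nfe2l2, chr3:81028950-81028971, minus strand, core at base 39 from the start site: gactagccatTGACGCCGCctc

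Slc7a11 was the single member whose signal passed the test in any comparison, so its window is shown as well. The 250 bases before its start site, chr2:136668265-136668514 on the minus strand of GRCr8, held no TGACNNNGC on either strand. They held the looser letters TGANNNNGC, which are capitalised below and which occurred in 40.5% of all windows and in windows of 8 member genes.
Slc7a11: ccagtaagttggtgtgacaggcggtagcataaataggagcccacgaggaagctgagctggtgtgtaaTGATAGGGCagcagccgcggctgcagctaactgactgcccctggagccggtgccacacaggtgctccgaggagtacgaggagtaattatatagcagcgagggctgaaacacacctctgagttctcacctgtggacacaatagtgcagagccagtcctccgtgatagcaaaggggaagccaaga

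All values below are log2 signals normalised between arrays, so that a difference of 1 is a doubling, and levels of different probe sets are not set against each other. Array medians lay between 6.83 and 6.90. Of the monocyte markers, 20 of 22 lay above the array median, as did 19 of 19 T-cell and 14 of 14 B-cell markers. The marker lists also differed between strains: averaged over diets, 12 of 19 neutrophil markers were higher in WKY rats and 0 lower, and 11 of 13 NK-cell markers were higher and 1 lower. Of the T-cell markers 10 of 19 were lower and 1 higher, of the platelet markers 6 of 10 lower and 0 higher, and of the erythroid markers 9 of 22 lower and 1 higher. Monocyte markers (7 of 22 lower, 3 higher), B-cell markers (3 of 14 lower, 2 higher) and dendritic-cell markers (3 of 14 lower, 4 higher) went both ways. These counts are at an adjusted p below 0.05 by limma, which 20.4% of all genes with a single annotated symbol passed in that comparison. Differences of cell number and of RNA per cell cannot be told apart in such bulk samples. In addition, 4 arrays stood apart by their heat shock score, the mean of 20 heat shock genes centred over the arrays: LEW STD rat 2 (score 0.84), LEW STD rat 3 (0.39), LEW CAF rat 2 (0.62) and WKY STD rat 1 (0.42). The other 16 arrays had scores from −0.22 to −0.01.

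In the comparison of strains, Slc7a11, which encodes the xCT subunit that imports cystine for glutathione synthesis, was the member that differed most. Its signals in LEW STD rats 1 to 5 were 10.28, 11.06, 10.94, 9.04 and 10.96, against 11.33, 11.66, 11.50, 11.21 and 11.69 in WKY STD rats. All 5 WKY STD rats lay above all 5 LEW STD rats, and LEW STD rat 4 lay far below the rest of its group. On the cafeteria diet LEW rats 1 to 5 measured 10.05, 10.34, 9.57, 10.55 and 11.40, and WKY rats 11.34, 11.06, 10.82, 11.13 and 11.40. There the groups overlapped through LEW CAF rat 5, which was level with the highest WKY CAF rat. The difference between strains was 1.02 on STD (95% CI 0.34 to 1.70, a 2.03-fold higher signal in WKY, adjusted p = 0.047 by limma) and 0.77 on CAF (0.09 to 1.45, adjusted p = 0.19). Averaged over diets, it was 0.90 (0.42 to 1.37, 1.86-fold, adjusted p = 0.0088). The order of the means was WKY STD, WKY CAF, LEW STD and LEW CAF, and neighbours of the same strain did not differ beyond their spread.

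Slc7a11 was the only one of the 11 member probe sets called higher on STD and averaged over diets (adjusted p below 0.05), and none was called lower in either comparison. Of all probe sets, 11.3% were called on STD, and 17.2% averaged over diets, with 8.74% higher and 8.42% lower in WKY. On CAF none of the 11 was called by limma, against 7.58% of all probe sets, and 1 of the 11 had an unadjusted p below 0.05. The groups of 5 did not overlap for 2 of 11 members on STD (8.46% of all probe sets) and for 0 of 11 on CAF (7.80% of all).

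The call of Slc7a11 on STD was close to the threshold. It was lost in 15 of the 20 fits that left out 1 rat each, remaining without LEW STD rat 2, 3 or 5 and without LEW CAF rat 3 or 5, and the difference fell to 0.67 (adjusted p = 0.11) without LEW STD rat 4. It was also lost when each array was centred on its median (0.997, adjusted p = 0.057). Without the 4 arrays that stood apart it was 1.42 (adjusted p = 0.028). The averaged difference kept its call whichever rat was left out, with values from 0.72 to 1.02.

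Slc7a11 moved together with neutrophil markers. The neutrophil score, centred over all arrays, ran from −0.93 to −0.42 in LEW STD, from −0.67 to 0.13 in LEW CAF, from −0.07 to 1.05 in WKY STD and from −0.11 to 0.65 in WKY CAF rats. LEW STD rat 4, with the lowest Slc7a11 signal of all, also had the lowest neutrophil score. With that score as a covariate the strain difference of Slc7a11 was −0.13 on STD (adjusted p = 0.97) and −0.028 averaged over diets (adjusted p = 0.99). The score and the strain nearly coincide in these rats, so their parts in the Slc7a11 difference cannot be told apart. Within groups, the correlation of Slc7a11 with the score was r = 0.57 over 20 arrays (rho = 0.73, and r = 0.63 without the 2 arrays of most extreme score), given as a description, since arrays share normalisation and the cell mixture. With a platelet score it was −0.65 (rho = −0.38, and r = −0.36 without the 2 arrays of most extreme score). With an erythroid score it was −0.45 (rho = −0.21, and r = −0.31 without those of most extreme score). LEW STD rat 4 also had the highest platelet score of all arrays (0.56) and the highest erythroid score of its group (0.79). With an erythroid score as a covariate the averaged difference was 0.54 (adjusted p = 0.21).

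**Figure D1:**
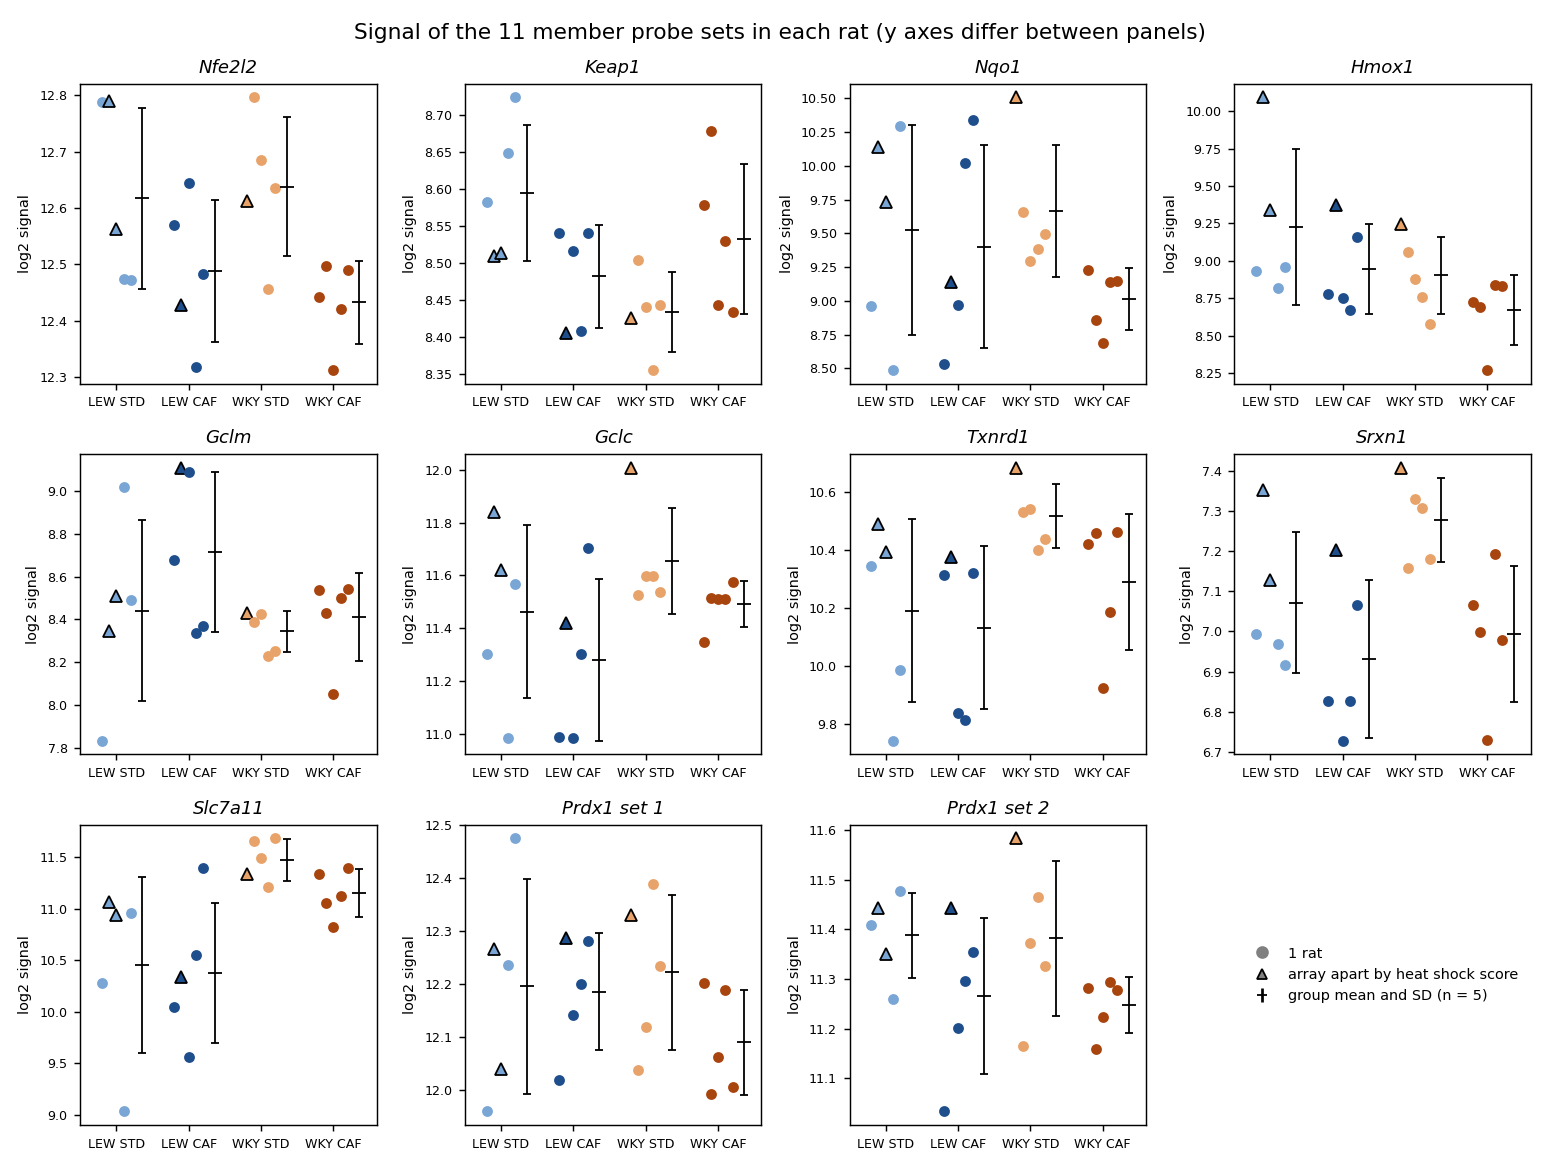
Log2 signal (y axis, scaled per panel) of each member probe set in each rat, by strain and diet group (x axis). Points are rats, triangles the 4 arrays that stood apart by heat shock score, and bars the group mean and SD of 5 rats. Slc7a11 of WKY STD rats, from 11.21 to 11.69, lies above that of LEW STD rats, from 9.04 to 11.06.

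Nfe2l2, the gene of the factor itself, differed little between strains. In LEW STD rats 1 to 5 it measured 12.79, 12.79, 12.56, 12.47 and 12.47, and in WKY STD rats 12.61, 12.80, 12.69, 12.46 and 12.63. The 2 groups covered nearly the same range. On CAF the signals were 12.57, 12.43, 12.64, 12.32 and 12.48 in LEW and 12.44, 12.50, 12.31, 12.42 and 12.49 in WKY rats. The strain difference was 0.02 on STD (95% CI −0.14 to 0.18) and −0.06 on CAF (−0.22 to 0.10). Both intervals lay within 1.5-fold.

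Keap1 encodes the protein that captures NRF2, and its levels varied least among the members. LEW STD rats 1 to 5 measured 8.58, 8.51, 8.51, 8.65 and 8.72, and WKY STD rats 8.43, 8.50, 8.44, 8.35 and 8.44. Every WKY STD rat lay below every LEW STD rat, by a narrow margin. On CAF the LEW signals of 8.54, 8.40, 8.52, 8.41 and 8.54 overlapped the WKY signals of 8.58, 8.68, 8.44, 8.53 and 8.43. The difference was −0.16 on STD (95% CI −0.28 to −0.05, unadjusted p = 0.0077, adjusted p = 0.062) and 0.05 on CAF (−0.06 to 0.16). Without the 4 arrays that stood apart the STD difference was −0.22 with an adjusted p of 0.045. It also passed without LEW STD rat 2 (−0.18, adjusted p = 0.046), without WKY CAF rat 2 (adjusted p = 0.048) and after centring each array on its median (−0.18, adjusted p = 0.042), so this difference sat at the edge of the threshold. Leaving out 1 rat gave adjusted p values from 0.046 to 0.17. As covariates, the heat shock score gave −0.18 (adjusted p = 0.024), the neutrophil score −0.18 (adjusted p = 0.62) and the erythroid score −0.14 (adjusted p = 0.16).

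Nqo1, a quinone reductase often used as a readout of NRF2 activity, spread widely among rats of the same group. Its signals were 8.96, 10.14, 9.73, 8.49 and 10.29 in LEW STD rats 1 to 5 and 8.53, 9.14, 8.97, 10.02 and 10.34 in LEW CAF rats. Within each LEW group the highest and lowest rats were thus about 3.50-fold apart. WKY STD rats measured 10.51, 9.66, 9.29, 9.39 and 9.49, with rat 1 well above the others, and WKY CAF rats 9.23, 8.86, 8.69, 9.14 and 9.15, a range of 1.45-fold. The strain difference was 0.14 on STD (95% CI −0.58 to 0.87) and −0.39 on CAF (−1.11 to 0.33). Both intervals reached past 1.5-fold, upwards on STD and downwards on CAF.

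Hmox1 encodes heme oxygenase, which breaks heme down to biliverdin, iron and carbon monoxide, and it is also a classical heat shock gene. In LEW STD rats 1 to 5 it measured 8.93, 10.09, 9.34, 8.82 and 8.96, and in LEW CAF rats 8.78, 9.37, 8.75, 8.67 and 9.16. The high values belonged to LEW STD rats 2 and 3 and LEW CAF rat 2, which are among the arrays that stood apart. WKY STD rats measured 9.24, 9.06, 8.88, 8.76 and 8.57, and WKY CAF rats 8.72, 8.69, 8.27, 8.84 and 8.83. The averaged strain difference was −0.30 (95% CI −0.60 to −0.0044, unadjusted p = 0.047, adjusted p = 0.17), −0.13 (adjusted p = 0.42) without the arrays that stood apart and −0.70 (adjusted p = 0.19) with the neutrophil score as a covariate.

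Gclm and Gclc encode the modifier and catalytic subunits of glutamate-cysteine ligase, the first enzyme of glutathione synthesis. Gclm had group means ± SD (n = 5) of 8.44 ± 0.42 in LEW STD, 8.72 ± 0.37 in LEW CAF, 8.34 ± 0.10 in WKY STD and 8.41 ± 0.21 in WKY CAF rats. Gclc had means of 11.46 ± 0.33, 11.28 ± 0.31, 11.65 ± 0.20 and 11.49 ± 0.09 in the same order. Averaged over diets, the strain difference was −0.20 for Gclm (95% CI −0.46 to 0.06, adjusted p = 0.33) and 0.20 for Gclc (−0.01 to 0.42, adjusted p = 0.21). The estimates of the partner subunits therefore had opposite signs, and neither passed the test. The estimate of Gclc moved with the covariate used, to 0.26 with the heat shock score (adjusted p = 0.044), 0.060 with the neutrophil score (adjusted p = 0.96) and 0.058 with the erythroid score (adjusted p = 0.83).

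Txnrd1 encodes cytosolic thioredoxin reductase, Srxn1 encodes sulfiredoxin, which repairs over-oxidised peroxiredoxins, and Prdx1 is one of those peroxiredoxins. Txnrd1 had group means of 10.19 ± 0.32 in LEW STD, 10.13 ± 0.28 in LEW CAF, 10.52 ± 0.11 in WKY STD and 10.29 ± 0.23 in WKY CAF rats. Averaged over diets its strain difference was 0.24 (95% CI 0.03 to 0.46, unadjusted p = 0.027, adjusted p = 0.12). That of Srxn1 was 0.13 (−0.01 to 0.28, adjusted p = 0.22). Both were called once the 4 arrays that stood apart were left out, Txnrd1 at 0.34 (adjusted p = 0.039) and Srxn1 at 0.21 (adjusted p = 0.031). With the neutrophil score as a covariate both estimates changed sign, to −0.040 for Txnrd1 (adjusted p = 0.98) and −0.044 for Srxn1 (adjusted p = 0.96). The probe sets of Prdx1 gave strain differences of −0.03 (−0.16 to 0.09) and −0.01 (−0.12 to 0.10), so a change of 1.5-fold lay outside both intervals.

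**Figure D2:**
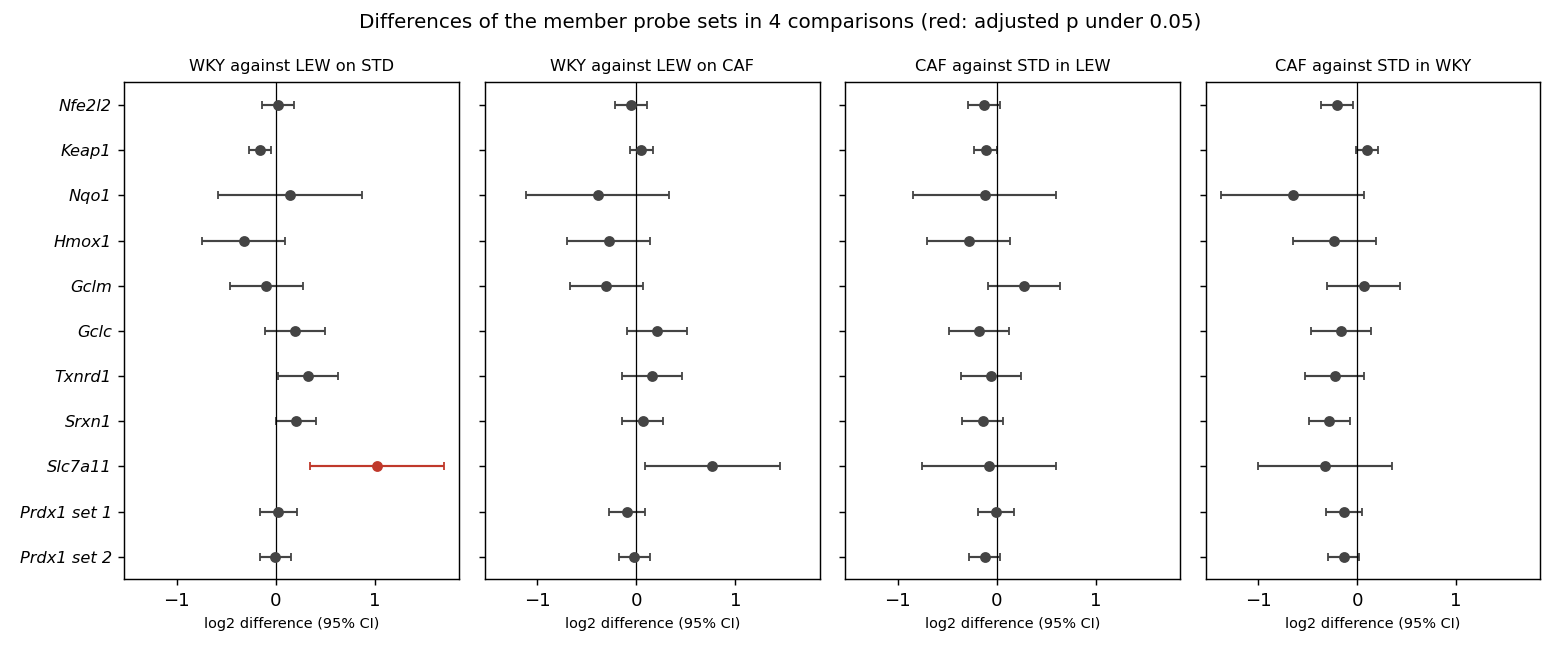
Log2 difference (x axis) of each member probe set (y axis) in 4 comparisons, with the 95% confidence interval from limma over 20 arrays. Red marks an adjusted p below 0.05, which only Slc7a11 on STD reached, and intervals are widest for Nqo1 and Slc7a11.

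The cafeteria diet gave no called member in either strain. Limma called 0 of 11 in LEW rats, 0 of 11 in WKY rats and 0 of 11 averaged over strains, and the share of all probe sets called was 0.00% each time. At an unadjusted p below 0.05 the counts were 0 of 11 in LEW (5.46% of all probe sets), 2 of 11 in WKY (8.81%) and 3 of 11 averaged over strains (8.26%). In WKY rats those were Nfe2l2 (−0.20, 95% CI −0.36 to −0.04, adjusted p = 0.42) and Srxn1 (−0.28, −0.49 to −0.08, adjusted p = 0.37). Averaged over strains they were Nfe2l2 (−0.17), Srxn1 (−0.21) and Prdx1 set 2 (−0.13). Monocyte markers also leaned down on CAF in WKY rats, with a median of −0.22 and 8 of 22 at an unadjusted p below 0.05 by limma. With the monocyte score as a covariate the WKY diet estimate of Nfe2l2 was −0.05 (adjusted p = 0.93) and that of Srxn1 −0.25 (adjusted p = 0.70). The part of cell mixture in these estimates was not tested. Groups that did not overlap were found for 0 of 11 in LEW (0.989% of all) and 1 of 11 in WKY rats (2.07% of all). That 1 was Nqo1, where the highest WKY CAF rat, at 9.23, lay below the lowest WKY STD rat, at 9.29, and the estimate was −0.65 (−1.38 to 0.07, adjusted p = 0.61). The limma interval takes 1 spread for all 4 groups. The SD of Nqo1 was 0.49 in WKY STD and 0.23 in WKY CAF, against 0.78 in LEW STD and 0.75 in LEW CAF rats.

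With all arrays kept, most diet estimates leaned the same way without passing the test. They were negative for 10 of 11 probe sets in LEW and 9 of 11 in WKY rats, with medians of −0.12 and −0.20, against −0.0042 and −0.0084 over all probe sets. Gclm was the exception in both strains (0.28 in LEW and 0.07 in WKY), together with Keap1 in WKY rats. Without the 4 arrays that stood apart, the LEW estimates of Nqo1 (0.22), Slc7a11 (0.30) and Txnrd1 (0.05) turned positive. No other member estimate of diet within a strain changed sign. Members are not independent of each other, since several were high or low in the same rats. Over the members, the 95% intervals reached a fold of 0.557 at the low end and 1.56 at the high end in LEW, and 0.385 and 1.35 in WKY rats.

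For the difference of diet responses between strains limma also called 0 of 11 members and 0.00% of all probe sets, with 1 of 11 members at an unadjusted p below 0.05 (5.95% of all). This was Keap1, whose diet estimate was −0.11 in LEW (95% CI −0.23 to 0.00) and 0.10 in WKY rats (−0.01 to 0.21). The interaction was 0.21 (0.05 to 0.37, unadjusted p = 0.012, adjusted p = 0.79).

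The members varied widely from rat to rat within groups. The residual SD within groups was 0.60 for Nqo1, 0.57 for Slc7a11, 0.35 for Hmox1 and 0.30 for Gclm, against a median of 0.11 over all probe sets. Nqo1 thus stood at percentile 99.8 of all probe sets, Slc7a11 at 99.7, Hmox1 at 97.8, Gclm at 96.2, Gclc at 92.9 and Txnrd1 at 92.7. The regulators lay lower, Nfe2l2 at percentile 61.7 and Keap1 at 20.1. For Slc7a11 the rats of a group ranged over 2.03 log2 units in LEW STD and 1.83 in LEW CAF, but over 0.48 in WKY STD and 0.58 in WKY CAF.

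Members that deviated together within groups can be described by their pairs. Correlations of the deviations from the group mean were computed for all 55 pairs of member probe sets over the 20 arrays, as a description without a test, since probe sets of the same arrays share normalisation and cell mixture. Their median was 0.21, and 15 pairs exceeded 0.5. Nqo1, Gclc and Slc7a11 went together: r was 0.84 for Nqo1 with Gclc, 0.78 for Nqo1 with Slc7a11 and 0.77 for Gclc with Slc7a11. Without the 4 arrays that stood apart these were 0.84, 0.87 and 0.87. Without the 2 arrays in which the first gene of the pair deviated most they were lower, at 0.75, 0.64 and 0.56. LEW STD rat 4 was the lowest of its group for all 3, and LEW CAF rat 5 the highest of its group for all 3. The probe set of a named gene most like both Nqo1 (r = 0.94) and Gclc (r = 0.93) was Akr1b8, an aldo-keto reductase. Those most like Slc7a11 were Il1rn (0.92), Htra4 (0.91) and Timp1 (0.90), of which Il1rn encodes the interleukin-1 receptor antagonist and Timp1 an inhibitor of metalloproteinases.

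Hmox1, Srxn1 and Txnrd1 also went together, with r of 0.85 for Hmox1 with Srxn1, 0.72 for Hmox1 with Txnrd1 and 0.66 for Txnrd1 with Srxn1. They were not separate from the genes above, since Gclc correlated at 0.69 with Hmox1, 0.61 with Srxn1 and 0.52 with Txnrd1, and Txnrd1 at 0.56 with Slc7a11. Without the arrays that stood apart those crossing values were 0.41, 0.36, 0.28 and 0.51. Without the 2 arrays in which 1 gene of the pair deviated most they were 0.62, 0.60, 0.33 and 0.32. In each of the 3 groups that held an array that stood apart, the highest signal of these 3 genes came from such an array. Hmox1 exceeded the mean of the other arrays of its group in all 4, by 0.43 to 1.19 (1.34-fold to 2.28-fold), Txnrd1 by 0.21 to 0.47 and Srxn1 by 0.16 to 0.39. Without those arrays r among the 3 genes was 0.69, 0.63 and 0.48. In the other 16 arrays the within-group correlation of Hmox1 with the heat shock score was 0.05. With the neutrophil score it was 0.72 in those 16 arrays and 0.40 over all 20. In the 16 arrays the neutrophil value was 0.70 for Slc7a11 and 0.64 for Nqo1, and lower for the remaining members. The genes most like Hmox1 were Zfand2a (0.91), a zinc-finger gene induced by arsenite and heat, Gadd45b (0.91) and Dusp10 (0.90). Those most like Srxn1 were Dusp10 (0.88), Zfand2a (0.86) and Txndc11 (0.85), and those most like Txnrd1 were Socs3 (0.93), Mapk6 (0.92) and Il6 (0.92).

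**Figure D3:**
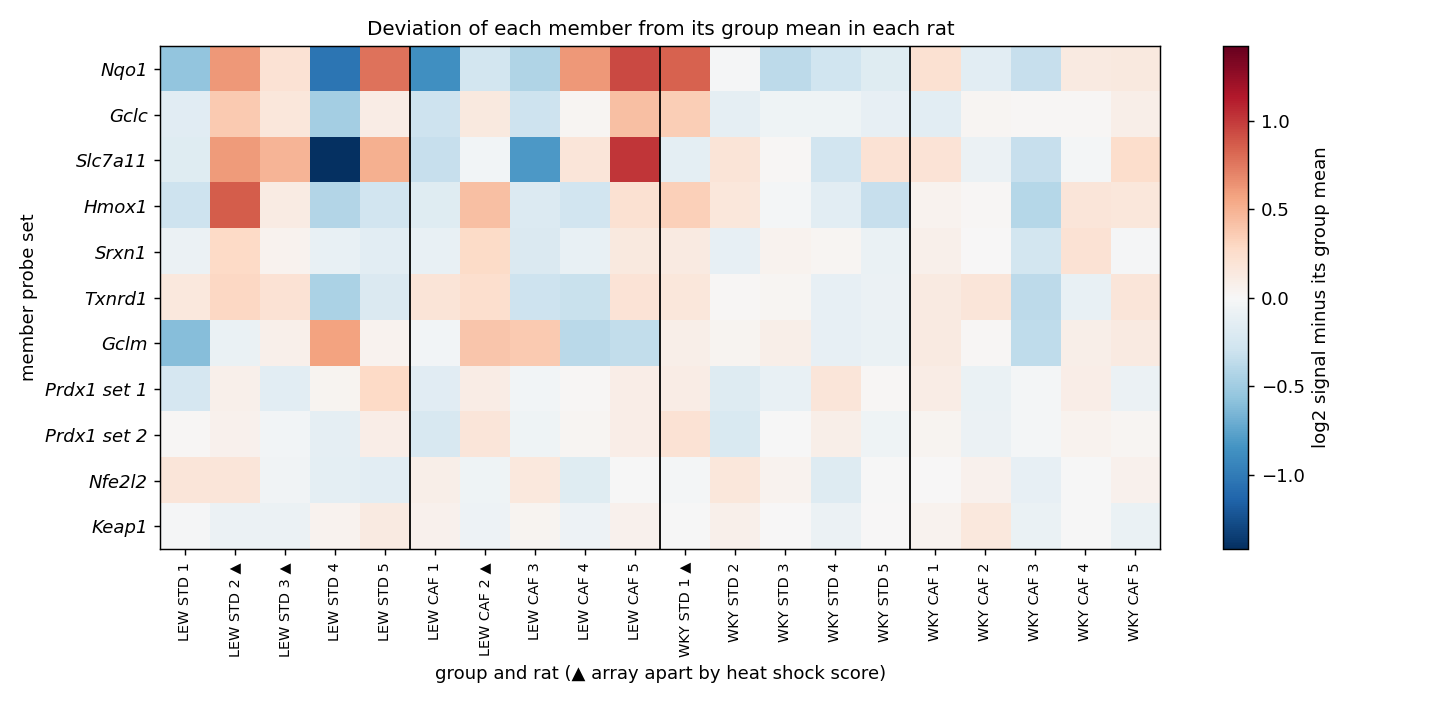
Log2 signal minus the mean of its group (colour) for each member probe set (rows) in each rat (columns), with black lines between groups and triangles at the 4 arrays that stood apart. Nqo1, Gclc and Slc7a11 are low together in LEW STD rat 4 and high together in LEW CAF rat 5, and Hmox1 is high in the marked arrays.

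Gclm ran apart from its partner subunit. Its signals were 7.83, 8.35, 8.51, 9.02 and 8.49 in LEW STD rats 1 to 5 and 8.68, 9.11, 9.09, 8.34 and 8.37 in LEW CAF rats. LEW STD rat 4, lowest for Gclc at 10.98, was highest for Gclm. The genes most like Gclm were Cd52 (0.96), Bpgm (0.94) and Rhd (0.94), of which Bpgm makes the bisphosphoglycerate of red cells and Rhd encodes a red-cell blood group antigen. The within-group correlation of Gclm with the score of 22 erythroid markers, 20 of which lay above the array median, was r = 0.92 over 20 arrays (rho = 0.89, and r = 0.85 without the 2 arrays of most extreme score). Without the arrays that stood apart it was 0.96. The erythroid score ran from −0.60 to 0.79 in LEW STD, 0.09 to 0.80 in LEW CAF, −0.57 to 0.00 in WKY STD and −0.64 to 0.10 in WKY CAF rats. With it as a covariate the averaged strain estimate of Gclm was 0.19 (adjusted p = 0.078) in place of −0.20, and the diet estimate in LEW rats −0.013 (adjusted p = 0.99) in place of 0.28.

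**Figure D4:**
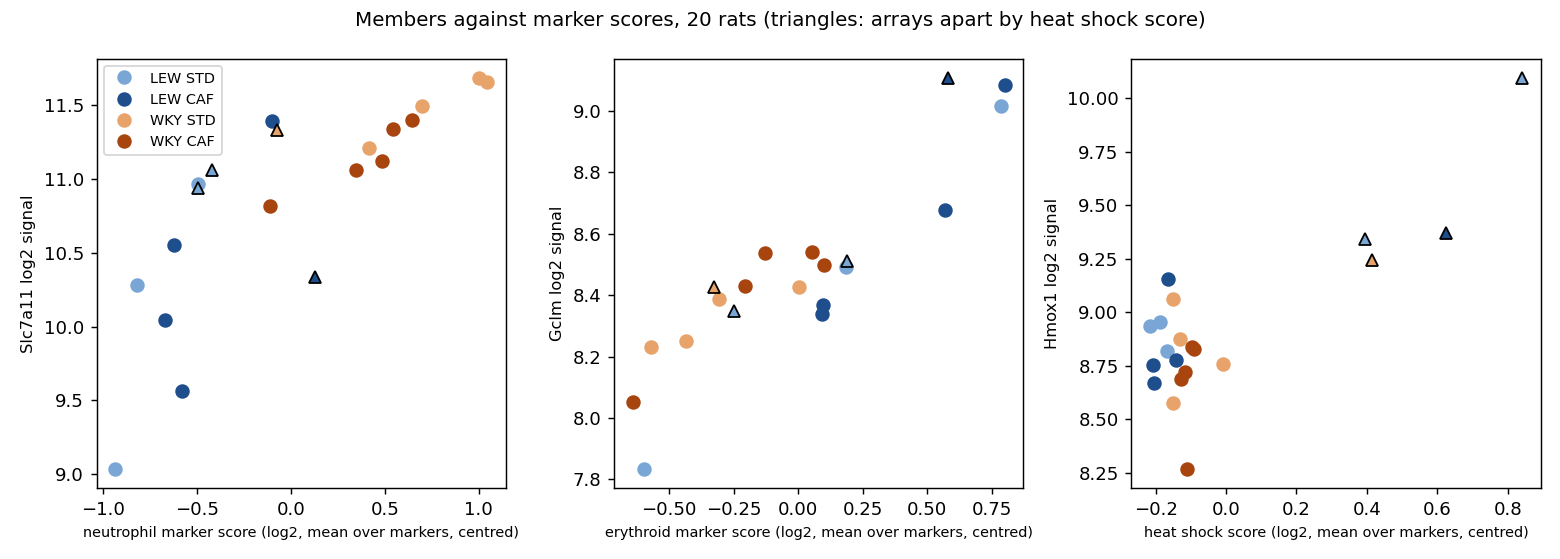
Log2 signal (y axes) of Slc7a11, Gclm and Hmox1 against the neutrophil, erythroid and heat shock score (x axes, mean log2 signal of the markers centred over the arrays) in 20 rats coloured by group. Triangles are the 4 arrays that stood apart, whose heat shock scores from 0.39 to 0.84 lie clear of the other 16.

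Nfe2l2 correlated above 0.5 with 1 other member, Txnrd1 (0.52, and 0.59 without the arrays that stood apart). The genes most like it were Cmklr1 (0.87), the chemerin receptor, Il1b (0.85) and Icam1 (0.85), and its within-group correlation with the monocyte marker score was 0.72 (rho = 0.78). Its lowest correlation with a member was −0.59, with Prdx1 set 1. The 2 probe sets of Prdx1 correlated at 0.65. The genes most like set 1 were Psat1 (0.78), Fastkd2 (0.77) and Praf2 (0.75), and those most like set 2 were Tra2b (0.89), Uchl1 (0.85) and Tnfrsf26 (0.84). For Keap1 they were Dpm3 (0.78), Dync2li1 (0.75) and Or4k48b (0.75).

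The wider pathway was read from 7 lists that together held 142 other measured genes. Averaged over diets, 20 were higher and 23 lower in WKY rats and 99 were not called, a share of 30.3%, against 20.4% of all named genes. On STD 13 were higher and 11 lower (16.9%, against 11.3% of all probe sets), and on CAF 8 were higher and 9 lower (11.97%, against 7.58%). For diet and interaction limma called 0 of 142. At an unadjusted p below 0.05 there were 7 of 142 for diet in LEW (5.46% of all probe sets), 20 in WKY rats (8.81%) and 16 averaged over strains (8.26%), and 6 for the interaction (5.95%). The lists hold 1 probe set per named gene, so shares of all probe sets, unnamed ones included, are not like for like. Averaged over diets, that share was 17.2%, below the 20.4% of named genes. Without the arrays that stood apart the averaged counts were 21 higher and 26 lower. All differences that follow are for WKY against LEW averaged over diets, and since most cell-type marker lists moved with strain as well, the part of cell mixture in them was not tested.

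Among partners and repressors of NRF2, 5 of 19 rose and 1 fell. Maff, a small MAF partner, was 2.08-fold higher (1.06, adjusted p = 2.5e-06), Bach1 0.26 and Mafg 0.23 higher, and Bach2 fell by 0.27. In glutathione synthesis and use, 2 of 36 rose and 6 fell. Gpx3, a secreted glutathione peroxidase, was higher by 1.55 (2.93-fold, adjusted p = 2.3e-09) and Ggt1, which begins the breakdown of extracellular glutathione, by 0.42, while Esd fell by 0.52 and Glrx, a glutaredoxin, by 0.27. Of the thioredoxin and peroxiredoxin genes 1 of 15 rose, Prdx4 (0.17), and 3 fell, including Msra (−0.53), Sesn3 (−0.35) and Sesn1 (−0.22). Genes of superoxide and peroxide removal split, with the cytosolic dismutase Sod1 lower by 1.51-fold (−0.60, adjusted p = 1.3e-07), the mitochondrial Sod2 higher (0.16) and 3 of 5 not called.

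Of the genes that supply NADPH, 4 of 11 rose and 2 fell. Isocitrate dehydrogenase Idh1 was 0.85 higher (adjusted p = 3.6e-07) and Mthfd2 0.22 higher, whereas the malic enzymes Me1 and Me2 fell by 0.56 and 0.13. In heme and iron handling 2 of 19 rose and 3 fell. Alas1, the first enzyme of heme synthesis, was 0.60 higher (adjusted p = 2.5e-05), and Lrp1 fell by 0.43. In the list named for quinone, aldehyde and drug metabolism, which also holds genes of other functions, 6 of 38 rose and 7 fell. Osgin1, Gabarapl1 and Ugdh were higher by 0.38, 0.36 and 0.33, and the metallothionein gene Mt1 fell by 0.29. Akr1b8, which tracked Nqo1 and Gclc from rat to rat, was 2.00-fold lower in WKY (adjusted p = 0.0051), although the strain estimates of Nqo1 (−0.12) and Gclc (0.20) did not pass the test.

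A further 3 lists of neighbouring processes are not part of the 142. The share called was 14.3% for oxidant production, 47.6% for integrated stress targets and 5% for heat shock, against 20.4% of all named genes. Among genes that produce oxidants, 1 of 14 rose and 1 fell: Nos2, the inducible nitric oxide synthase, was 1.14 higher (2.20-fold, adjusted p = 2.7e-05) and Rac1 fell by 0.29. Targets of the integrated stress response, which share Slc7a11 and other amino-acid supply genes with NRF2, rose in 9 of 21 cases and fell in 1. Ppp1r15a was 0.83, Phgdh 0.78, Ddit3 0.46 and Atf4, the factor of that response, 0.22 higher, with adjusted p values between 7.5e-09 and 0.00017. Within groups the correlation of Slc7a11 with the score of this list was 0.47, and 0.37 without the arrays that stood apart. This was not particular to Slc7a11: over 20 arrays it was 0.56 for Prdx1 set 1, 0.55 for Gclc, 0.50 for Nqo1, 0.47 for Srxn1 and 0.45 for Hmox1. It was 0.24 for Txnrd1 and below 0 for Nfe2l2 (−0.15), Keap1 (−0.29) and Gclm (−0.17). Of the heat shock genes, Hspa4l rose (0.80, adjusted p = 0.0016) and the other 19 of 20 were not called.

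**Figure D5:**
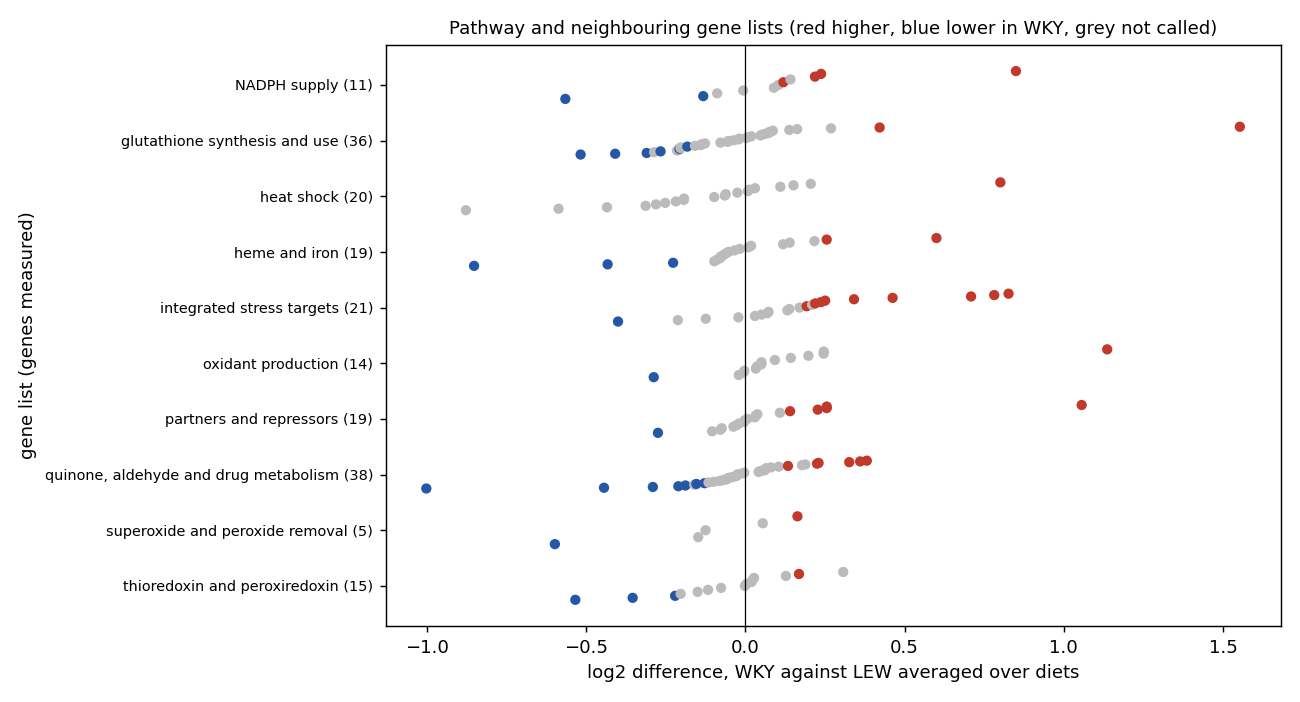
Log2 difference between WKY and LEW rats averaged over diets (x axis) for genes of the 7 pathway lists and of the 3 further lists (oxidant production, integrated stress targets and heat shock; y axis, with the number measured). Each point is a gene, red where higher and blue where lower at an adjusted p below 0.05; called genes lie on both sides in 9 of the 10 lists.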

How the data were processed

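The deposited values were log2 probe-set signals of Rat Gene 1.0 ST arrays, 1 array per rat and 20 in all, which the authors normalised by RMA according to the methods, whereas the submitters' processing notes name MAS5; versions and the genome build are not given in the sources used here. The values ran from 3.57 to 14.4, and the number of arrays limits the precision. Of 28826 probe sets, 15209 had 1 annotated symbol, 306 had several and 13311 were not listed. The 4 group means were fitted to all 20 arrays with limma 3.58.1 in R 4.3.3 (eBayes without a trend), with Benjamini-Hochberg adjustment over all probe sets and a threshold of 0.05. Contrasts were WKY against LEW on each diet and averaged, CAF against STD in each strain and averaged, and their interaction. Scores are mean log2 signals of a list minus their mean over the arrays, and arrays more than 3 scaled MADs from the median heat shock score stood apart. The code was tested on simulated data. Alternatives were other scalings, filters, fits and covariates and leaving out each rat.

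The members and the gene lists were chosen with earlier results of these data known. All members are named, up to 4 genes of smallest adjusted p per list, and the 3 named genes most like each member by Pearson correlation within groups.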

Additional observations from a re-analysis of the deposited data

Results flagged for a closer look

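In 44 sets of 5 rats, each being a member probe set in a group, the highest or lowest rat was set against the rest of its group by Dixon's criterion, and 4 exceeded the 95% critical value. Chance gives about 1 in 20. Hmox1 of WKY CAF rat 3 was low, at 8.27 against 8.69 to 8.84 in the other rats of the group. Gclm of the same rat was low, at 8.05 against 8.43 to 8.54. That rat was the lowest of its group for 7 of 11 member probe sets and had the lowest monocyte score (−0.56) and erythroid score (−0.64) of its group. Gclc of WKY STD rat 1 was high, at 12.01 against 11.5 to 11.6. This rat, 1 of the 4 with a high heat shock score, was the highest of its group for 7 of 11. Gclc of WKY CAF rat 1 was low, at 11.3 against 11.5 to 11.6.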

How the results depend on the processing

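Of 2431 member values under the alternatives, 2379 kept their direction and their side of the threshold or moved by less than 1 SD. The sign changed in 111 of the 2431. Included are fits without a rat from a group outside the comparison, where the estimate itself could not move. The neutrophil score as a covariate turned the strain difference of Slc7a11 to −0.13 on STD and −0.028 averaged over diets, and lowered the probe sets called among all from 2185 to 1001 on CAF, from 3247 to 450 on STD and from 4947 to 916 averaged; the cause was not tested. On STD the members called went from 1 to 0 with array weights, with the monocyte, erythroid or neutrophil score as a covariate and with only the groups compared, to 4 with the heat shock score as a covariate and to 2 without the arrays that stood apart. With each array centred on its median the count stayed at 1, but Keap1 was called and Slc7a11 was not (adjusted p = 0.057). Averaged over diets they went from 1 to 2 with the monocyte score, to 0 with the erythroid or neutrophil score, to 4 with the heat shock score and to 3 without the arrays that stood apart. On CAF they went from 0 to 1 with array weights, where Slc7a11 was 0.92 (adjusted p = 0.039). Leaving out 1 rat gave 0 to 1 members called on CAF, 0 to 2 on STD and 1 averaged, and 1677 to 2358, 2435 to 3414 and 4484 to 5111 among all. In WKY rats it gave 0 to 1 probe sets called for diet.

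Over all groups, 9 of 30 same-number pairs correlated above 0.1 (from −0.18 to 0.43) and 5 of 20 arrays correlated best with their own number. The highest values were both between LEW STD and LEW CAF, for rat 5 (0.43) and rat 2 (0.41). These pooled counts do not settle whether the numbers pair the LEW arrays. With the replicate number as a block, 2 members were called averaged over diets, the added one being Txnrd1 (adjusted p = 0.044), and 1 probe set for diet in WKY rats. The stricter core TGACTNNGC was found in windows of 2 member genes and the looser TGANNNNGC in 8, in place of 4.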
